A study of Mus musculus with 18 samples.

Results

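The genes described here copy DNA or carry cells through mitosis. They were chosen by name, as 25 genes of DNA replication and 15 of mitosis, and each was read from the probe set that the platform annotation gives to that symbol alone, or from the one with the highest mean over all 18 arrays where there were several. Of the 40 genes, 39 were measured, among 19938 genes with such a probe set. The 25 replication genes were all measured, as were 14 of the mitotic genes. Ccnb1, a cyclin of the mitotic kinase, had no probe set of its own symbol and was not analysed here. The RNA came from mouse cultures and was read on Affymetrix Mouse Gene 1.0 ST arrays, which measure a gene with probes spread along its transcript. The groups have 3 arrays each, called biological replicates in the labels. Undifferentiated cells form 4 groups: Embryonal stem cells (ES cells, from the early embryo) and Adult stem cells, each from the 129SV and from the Stra8-EGFP/Rosa26 background (Stra8 below). The other 2 groups are differentiated Embryonal and Adult stem cells, both 129SV. The series title describes the adult cells as germline stem cells. No growth or treatment protocol came with the labels, so the way of differentiating the cells, the presence of feeder cells and the number of independent lines per group are not known here. Stra8, a gene of germ cells, the fluorescent protein EGFP and the Rosa26 locus appear only in the name of the Stra8 background, and background and cell line cannot be told apart.

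A cell that divides prepares its origins of replication before S phase and copies its DNA once. The origin recognition complex (Orc1, Orc6), Cdc6 and Cdt1 load the Mcm2 to Mcm7 ring on DNA. Mcm10, Cdc45 and the GINS complex (Gins1, Gins2) turn that ring into a working helicase. DNA polymerase alpha (Pola1) with its primase (Prim1) starts each strand, polymerase epsilon (Pole) extends the leading strand, and the loader proteins Rfc3 and Rfc4 place the sliding clamp Pcna. Ribonucleotide reductase (Rrm1, Rrm2) and thymidylate synthase (Tyms) supply nucleotides, and Fen1 and Lig1 process and join Okazaki fragments. In mitosis, Cdk1 with its cyclins, Plk1, Aurka and Aurkb with its partner Birc5 drive entry and chromosome segregation, and Bub1, Bub1b and Mad2l1 hold back Cdc20 until the chromosomes are attached. Kif11 separates the spindle poles, Top2a untangles DNA, and Mki67 coats mitotic chromosomes and is a common stain for cycling cells. Mouse ES cells are known for fast cycles with a short gap before S phase. E2F factors are the classical regulators of the replication genes, and the MuvB complex acts on many mitotic genes through a short element called CHR, often with CCAAT boxes next to it.

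Those elements were looked for in the members' promoters, because the 2 classes are compared throughout. RefSeq promoter windows (assembly GRCm38.p6, 250 bases before to 50 after a gene's start) were listed for 33 of the 39 genes, 21 of replication and 12 of mitosis. The E2F site was searched as TTTCCCGC, TTTCGCGC, TTTGGCGC or TTTGCCGC, the CHR as TTTGAA and the CCAAT box as CCAAT, each on both strands, and a gene with several windows was counted if any held the letters. An E2F site was in the windows of 10 of the 21 replication genes (47.6%) and of 1 of the 12 mitotic genes (8.33%), beside 3.48% of the 15614 measured genes with a window. The CHR was in 3 replication windows (14.3%) and 9 mitotic ones (75%), beside 17.3% of all. CCAAT was in 15 replication windows (71.4%) and 10 mitotic ones (83.3%), beside 41.7% of all. Both the CHR and CCAAT were in 2 replication and 9 mitotic windows, beside 7.94% of all genes. The genes with an E2F match were Orc1, Cdc6, Cdt1, Mcm3, Mcm5, Mcm6, Mcm7, Rfc3, Pola1 and Lig1, and Cdk1 among the mitotic genes. Those with a CHR were Bub1b, Cdc20, Aurka, Plk1, Cdk1, Ccnb2, Kif11, Top2a and Mki67, and Mcm2, Cdc45 and Fen1 among the replication genes. A match describes the letters and is not a measured binding site.

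The windows of Mcm5, Mcm3 and Rrm2 are printed because these replication genes fell most when ES cells differentiated. Those of Cdc20, Ccnb2 and Mki67 show the CHR and CCAAT arrangement in a gene that fell in both origins, in a cyclin and in the mitotic gene with the opposite response. Each runs 5′ to 3′ along the gene, and capitals mark E2F, CHR and CCAAT matches on either strand. In Mcm5, at chr8:75109259-75109558 on the plus strand, a pair of E2F matches overlap. Mcm3 lies at chr1:20820263-20820562 on the minus strand and Rrm2, in which none of the E2F spellings was found, at chr12:24708004-24708303 on the plus strand. Cdc20 lies at chr4:118437294-118437593, Ccnb2 at chr9:70421505-70421804 and Mki67 at chr7:135716330-135716629, all on the minus strand.
Mcm5: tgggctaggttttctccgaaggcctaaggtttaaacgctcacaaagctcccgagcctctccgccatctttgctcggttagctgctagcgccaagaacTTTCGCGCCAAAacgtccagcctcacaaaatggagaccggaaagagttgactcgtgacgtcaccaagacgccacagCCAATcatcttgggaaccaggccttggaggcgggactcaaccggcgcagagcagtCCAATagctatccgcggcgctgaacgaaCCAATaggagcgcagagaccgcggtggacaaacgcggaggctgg
Mcm3: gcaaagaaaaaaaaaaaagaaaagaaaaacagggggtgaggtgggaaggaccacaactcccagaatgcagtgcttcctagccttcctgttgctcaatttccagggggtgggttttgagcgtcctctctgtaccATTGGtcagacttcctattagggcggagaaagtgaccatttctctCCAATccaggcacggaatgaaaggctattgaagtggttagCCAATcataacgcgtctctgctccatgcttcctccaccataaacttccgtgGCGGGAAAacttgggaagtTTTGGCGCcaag
Rrm2: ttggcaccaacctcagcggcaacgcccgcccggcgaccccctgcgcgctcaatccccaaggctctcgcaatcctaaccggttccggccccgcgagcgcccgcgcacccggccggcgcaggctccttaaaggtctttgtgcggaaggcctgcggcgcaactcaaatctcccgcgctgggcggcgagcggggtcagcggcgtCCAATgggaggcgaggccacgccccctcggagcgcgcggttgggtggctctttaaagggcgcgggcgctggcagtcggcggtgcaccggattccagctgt
Cdc20: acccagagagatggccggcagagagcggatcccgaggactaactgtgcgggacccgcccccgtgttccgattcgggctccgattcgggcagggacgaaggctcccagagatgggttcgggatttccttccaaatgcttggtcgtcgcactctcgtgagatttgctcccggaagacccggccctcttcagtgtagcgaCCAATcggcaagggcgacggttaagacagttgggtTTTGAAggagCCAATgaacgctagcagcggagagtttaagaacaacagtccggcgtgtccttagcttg
Ccnb2: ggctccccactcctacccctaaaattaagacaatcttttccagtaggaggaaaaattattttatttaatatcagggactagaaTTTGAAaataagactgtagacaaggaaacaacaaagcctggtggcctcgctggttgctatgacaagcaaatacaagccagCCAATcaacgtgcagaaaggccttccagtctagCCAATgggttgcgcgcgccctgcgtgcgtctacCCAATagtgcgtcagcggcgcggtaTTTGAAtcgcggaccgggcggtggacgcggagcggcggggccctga
Mki67: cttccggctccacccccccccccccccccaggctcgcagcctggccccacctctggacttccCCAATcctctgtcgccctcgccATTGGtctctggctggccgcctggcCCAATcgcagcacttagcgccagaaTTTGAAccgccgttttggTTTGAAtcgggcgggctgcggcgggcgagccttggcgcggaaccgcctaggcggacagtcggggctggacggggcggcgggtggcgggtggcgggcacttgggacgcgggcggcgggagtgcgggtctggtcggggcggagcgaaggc

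All values below are log2 signals as deposited, so a difference of 1 is 2-fold. The medians of the arrays over all probe sets lay between 7.22 and 7.38. Replicate arrays differed little for these genes: the median SD within a group was 0.055 for the replication genes and 0.046 for the mitotic genes (n = 3). Replicate 3 of the differentiated ES cells had an estimated array weight of 0.15, the lowest of the 18. Markers of pluripotent cells and of endoderm set undifferentiated apart from differentiated cells. No list of germ cell markers was used, so the adult or embryonal origin was not checked here. The mean over 8 genes of pluripotent cells was 11.7 to 12.1 on the arrays of undifferentiated cells, 9.39 to 9.59 in differentiated ES cells and 10.1 to 10.2 in differentiated adult cells. The mean over 17 of 18 fibroblast genes, listed because fibroblasts serve as feeder layers, was 10.5 to 10.6 in ES 129SV, 9.57 to 9.64 in adult 129SV, 9.27 to 9.35 in ES Stra8 and 10.1 to 10.2 in adult Stra8. It was 8.24 to 8.33 in differentiated ES and 8.83 to 8.90 in differentiated adult cells. The mean over 11 endoderm and extraembryonic genes was 6.94 to 7.70 in undifferentiated and 9.42 to 9.48 in differentiated cells. Over 6 of 9 macrophage and blood genes it was 6.72 to 7.58. No marker is listed at 0. In bulk RNA, fewer dividing cells and less of these RNAs per cell cannot be told apart.

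Over the 6 groups, the replication genes as a class varied more than the median gene and shared their lowest group, while the mitotic genes split. The range of a gene's 6 group means had a median of 1.53 over the replication genes and 1.06 over the mitotic genes, beside 0.62 over all genes. Rfc3 and Rrm1, at 0.50 and 0.54, varied less than the median gene. So did the mitotic genes Cdk1 and Ccnb2, at 0.59 and 0.61. By group mean, all 25 replication genes were lowest in differentiated ES cells. For Rfc3 this was nearly a tie with adult Stra8, at 8.80 and 8.83, and the arrays of these groups overlapped. Of the 14 mitotic genes, 10 were lowest in differentiated ES cells, Cdc20 and Ccna2 in differentiated adult cells, Mki67 in ES 129SV and Aurkb in adult Stra8. The highest group was ES Stra8 for 11 mitotic genes and adult 129SV for 3. Among the replication genes it was adult 129SV for 9, adult Stra8 for 9 and ES Stra8 for 7. All 25 replication and all 14 mitotic genes had a mean level above that of the median gene. Their median levels were 10.1 and 10.8, beside 7.64 over all genes. Ranges were not compared with those of genes of similar level. The shares of all genes called, given below, likewise include dim genes, whose group means all lay below the median of the deposited values.

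**Figure D1:**
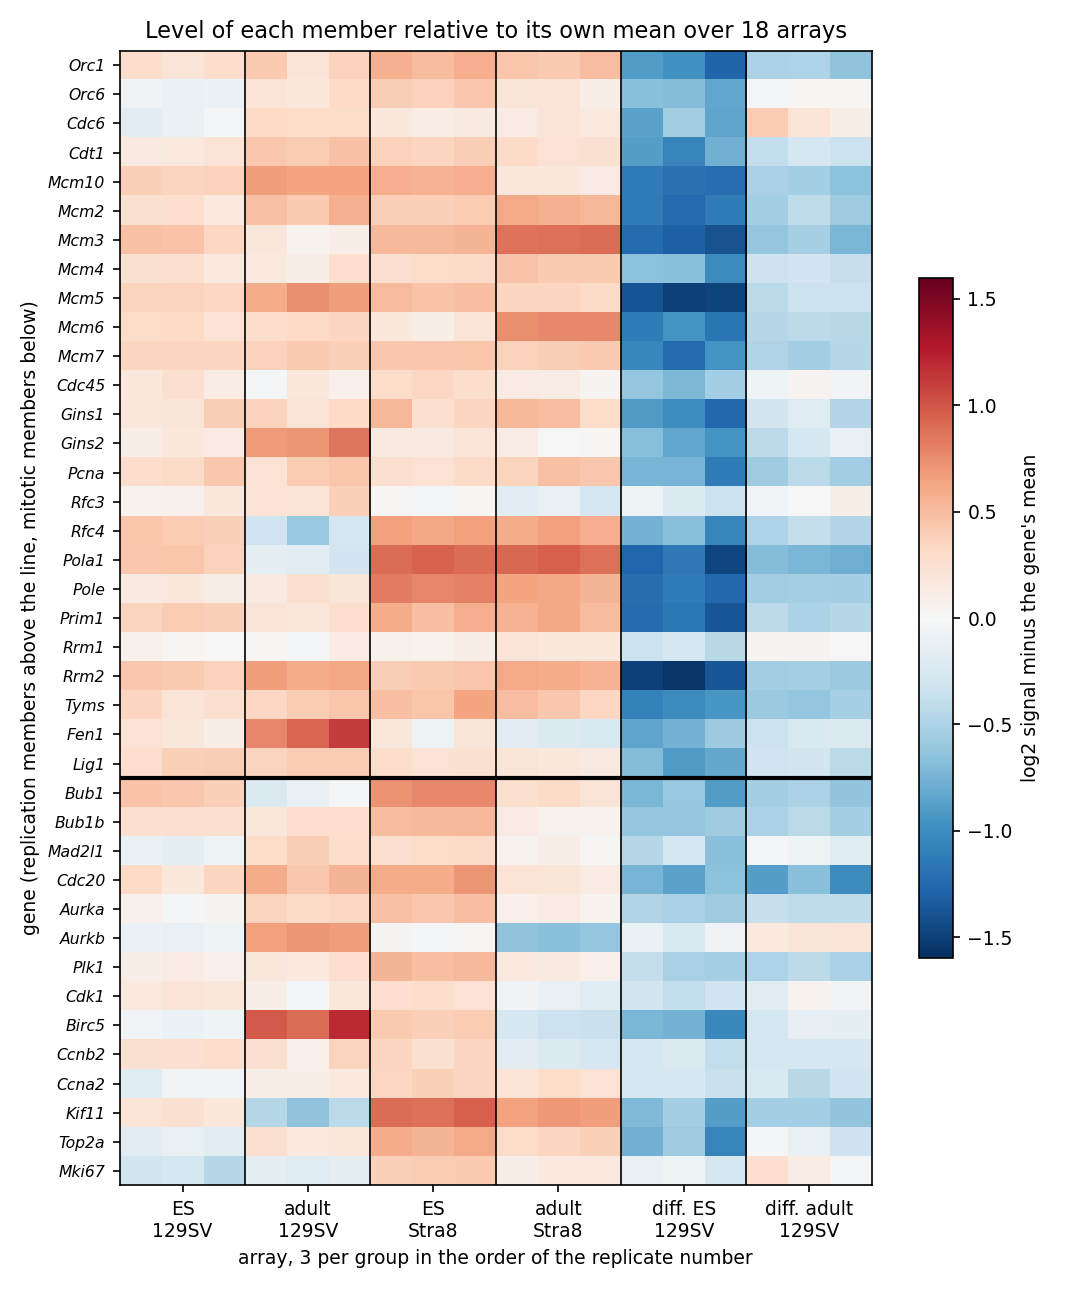
Heat map of the 39 genes (rows, replication genes above the line and mitotic genes below) on the 18 arrays (columns, in the 6 groups), coloured by the log2 signal minus the gene's mean over all arrays. The replication rows other than Rfc3 are lowest in the 3 arrays of differentiated ES cells, while Aurkb and Mki67 follow another order.

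The classes were compared through the median of their gene-centred values on each array (each gene's log2 signal minus its mean over the 18 arrays). The replication median was 0.26 ± 0.004 in ES 129SV, 0.33 ± 0.043 in adult 129SV, 0.39 ± 0.021 in ES Stra8 and 0.37 ± 0.047 in adult Stra8 (SD, n = 3). It was -0.97 ± 0.081 in differentiated ES and -0.42 ± 0.034 in differentiated adult cells. The class medians of the undifferentiated groups thus lay from 0.26 to 0.39, and those of both differentiated groups lay apart from them and from each other. A class median can hide opposite changes. Between adult Stra8 and adult 129SV, 8 replication genes were called higher and 7 lower, with a median change of 0.02. The mitotic median ran differently among undifferentiated cells, at 0.069 ± 0.018 in ES 129SV, 0.22 ± 0.054 in adult 129SV, 0.44 ± 0.019 in ES Stra8 and 0.11 ± 0.034 in adult Stra8. It was -0.52 ± 0.052 in differentiated ES and -0.31 ± 0.028 in differentiated adult cells. The replication median minus the mitotic one was 0.27 ± 0.019 in adult Stra8, 0.19 ± 0.014 in ES 129SV, 0.11 ± 0.02 in adult 129SV, -0.049 ± 0.0078 in ES Stra8, -0.12 ± 0.055 in differentiated adult and -0.45 ± 0.029 in differentiated ES cells. The order of the groups therefore differed between the classes, with ES Stra8 and adult Stra8 near each other in replication and far apart in mitosis. These medians are descriptions, given with no test.

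**Figure D2:**
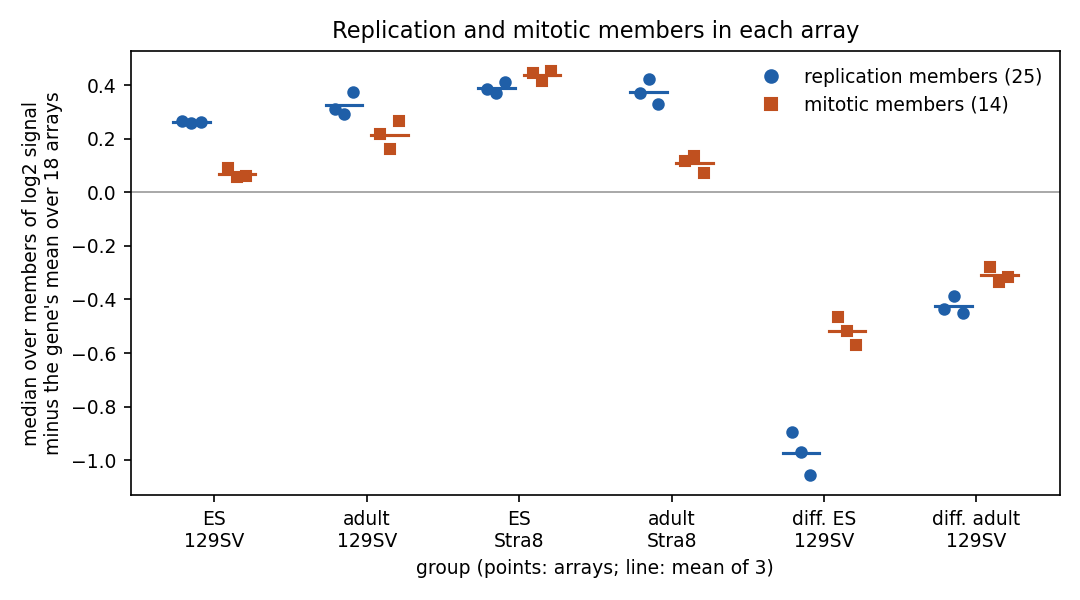
Median gene-centred log2 signal of the 25 replication and the 14 mitotic genes in each array (points) and the mean of each group of 3 (lines). Replication medians differ less among the 4 undifferentiated groups than between these and the differentiated groups. They are lowest in differentiated ES cells, and the mitotic median is highest in ES Stra8.

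When ES cells of the 129SV background differentiated, every measured replication gene fell and most mitotic genes fell by less. All 25 replication genes passed the test as lower (adjusted p under 0.05 over all genes in limma), beside 27.3% of all genes called lower and 27.9% called higher. Their median change was -1.28. Mitotic genes were lower in 12 and higher in 1 of 14, with a median of -0.57. The median over all genes was 0.047. With dim genes left out, 5030 of 12411 genes were called lower and 4606 higher. The replication median minus the mitotic one was -0.71.

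Among the genes listed under origins and licensing, where Mcm10 was placed, Mcm10 had the largest range. Its signal was 10.35, 10.33 and 10.34 in ES cells and 8.85, 8.78 and 8.75 after differentiation, a change of -1.55 ± 0.048 (± SE; adjusted p = 5.58e-14). Cdc6, the loader with the smallest range of its role, was at 10.01, 10.07 and 10.16 and then 9.31, 9.61 and 9.33, a change of -0.66 ± 0.082 (adjusted p = 2.31e-06). The groups did not overlap for either gene. Here and below, how many of all genes had groups without overlap was not counted. A lack of overlap therefore only describes the arrays of the named gene. In the helicase, Mcm3 was at 12.20, 12.18 and 12.06 in ES cells and 10.49, 10.42 and 10.34 after differentiation. Its change was -1.73 ± 0.061 (adjusted p = 2.85e-13), and its ring partner Mcm5 changed by -1.80 ± 0.052 (adjusted p = 2.12e-14). The other ring subunits fell too, by between 1.00 for Mcm4 and 1.42 for Mcm7. Cdc45, the helicase cofactor with the smallest range, was at 9.37, 9.47 and 9.32 and then 8.59, 8.49 and 8.66, and fell by 0.81.

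Pola1, the catalytic subunit of polymerase alpha, was at 10.10, 10.11 and 10.03 in ES cells and 8.39, 8.52 and 8.19 after differentiation, a change of -1.71 ± 0.069 (adjusted p = 1.63e-12). Rfc3 of the clamp loader moved least among the replication genes, from 9.07, 9.08 and 9.19 to 8.93, 8.80 and 8.67, a change of -0.31 ± 0.071 (adjusted p = 0.00123). The subunits of ribonucleotide reductase fell by unequal amounts. Rrm2, the small subunit, whose RNA rises in S phase, was at 10.70, 10.69 and 10.64 in ES cells and 8.78, 8.71 and 8.90 after differentiation. Its change of -1.88 ± 0.052 was the largest of all members (adjusted p = 1.37e-14). Rrm1, the large subunit, was at 11.37, 11.32 and 11.30 and then 10.95, 11.01 and 10.85, and changed by -0.39 ± 0.054 (adjusted p = 7.14e-06).

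Bub1 and Cdc20 fell most among the mitotic genes. Bub1, a kinase of the spindle checkpoint, was at 10.90, 10.87 and 10.82 in ES cells and 9.71, 9.83 and 9.55 after differentiation, a change of -1.16 ± 0.07 (adjusted p = 2.54e-10). Cdc20, which activates the anaphase-promoting complex, changed by -1.03 ± 0.083 (adjusted p = 1.11e-08). The motor Kif11, at 10.74, 10.78 and 10.70 and then 9.83, 9.99 and 9.65, changed by -0.92 ± 0.075 (adjusted p = 1.27e-08). Bub1b, which inhibits Cdc20, changed by -0.86 ± 0.047 (adjusted p = 8.06e-11). The groups did not overlap for any of these 4 genes, a property not counted over all genes. Mad2l1, the checkpoint gene with the smallest range, was at 11.12, 11.07 and 11.14 and then 10.77, 10.95 and 10.54, and fell by 0.36. Cdk1, the mitotic kinase itself, was at 9.95, 10.00 and 9.98 and then 9.50, 9.40 and 9.48, and fell by 0.52. Birc5, the survivin gene, was at 9.46, 9.40 and 9.44 and then 8.78, 8.76 and 8.47, and fell by 0.77. The cyclins fell by unequal amounts. Ccnb2 was at 10.63, 10.64 and 10.67 and then 10.11, 10.15 and 10.00 and fell by 0.56, and Ccna2 was at 10.81, 10.96 and 10.95 and then 10.73, 10.72 and 10.64 and fell by 0.21. The call of Ccna2 was lost after quantile normalisation, at -0.11 (adjusted p = 0.114), and with a replicate block in a fit to these 2 groups alone (adjusted p = 0.0912).

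A pair of mitotic genes did not pass as lower. Aurkb, the kinase of the chromosomal passenger complex, was at 10.71, 10.68 and 10.73 in ES cells and 10.70, 10.56 and 10.74 after differentiation, and the ranges overlapped. Its change was -0.043 ± 0.051 (95% confidence interval -0.15 to 0.066; adjusted p = 0.515). With each array centred on its median it was called lower, at -0.17 (adjusted p = 0.0107). Mki67 was at 10.72, 10.72 and 10.56 and then 10.89, 10.94 and 10.74, a change of 0.19 ± 0.072 (adjusted p = 0.0322). The call of Mki67 was lost in several alternatives: the change was 0.068 with each array centred on its median (adjusted p = 0.485), and the adjusted p was 0.102 in a fit to these 2 groups alone. It was 0.156 without replicate 3 of the ES cells, and 0.0887 and 0.12 without replicates 1 and 2 of the differentiated ES cells. Centring each array moved the median of all genes by -0.13 here, which is a further fall for every gene. With it the share of higher genes among all calls went from 50.5% to 37.1%, and all 25 replication genes were still called lower.

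Other genes of the same pathways, which were not members, moved mostly the same way. Of 35 other replication genes 32 were lower and none higher, with a median of -0.74. Uhrf1, which guides maintenance of DNA methylation at the fork, changed by -1.67 and the polymerase epsilon subunit Pole2 by -1.34. Of 44 other mitotic genes 35 were lower and 2 higher, with a median of -0.49, led by the cohesin protector Cdca5 at -1.23. The 18 E2F, pocket protein and MuvB genes had 13 lower and 2 higher (median -0.53), with Mybl2 at -1.11. Of 8 DNA damage checkpoint genes 7 were lower and 1 higher (median -0.76). Among the marker lists, 16 of 17 fibroblast genes were lower and 1 higher, all 8 pluripotency genes were lower, and all 11 endoderm and extraembryonic genes were higher. Of 6 macrophage and blood genes, 4 were lower and 2 higher. The part of these other cell types in the result was not tested.

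When the adult 129SV cells differentiated, most genes of both classes fell. Of the 25 replication genes 21 were lower and none higher, with a median of -0.74. Among all genes 32.2% were called lower and 27.5% higher, and the median was -0.08. Of the 14 mitotic genes 11 were lower and 1 higher, with a median of -0.48. The replication median minus the mitotic one was -0.27. Centring moved the share of higher genes among all calls from 46.0% to 35.9%, and with it 22 replication genes were lower and none higher, the added one being Cdc45.

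Mcm10 was at 10.63, 10.60 and 10.61 in adult cells and 9.45, 9.42 and 9.31 after differentiation, a change of -1.22 ± 0.048 (adjusted p = 1.29e-12), the largest among the replication genes. Fen1, the flap nuclease of Okazaki fragments, changed by -1.21 ± 0.091 (adjusted p = 4.17e-09). Rrm2 was at 10.94, 10.86 and 10.89 and then 9.71, 9.73 and 9.67, a change of -1.19 ± 0.052 (adjusted p = 4.95e-12). Mcm5 changed by -1.04 ± 0.052 (adjusted p = 2.26e-11), and these 4 genes had no overlap between groups. Mcm3 was at 11.90, 11.79 and 11.83 and then 11.11, 11.19 and 10.99, and fell by 0.74. Pola1 was at 9.50, 9.47 and 9.36 and then 8.96, 8.93 and 8.88, and fell by 0.52. Rfc3 was at 9.25, 9.24 and 9.40 and then 8.97, 9.03 and 9.11, and fell by 0.26.

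For 4 replication genes the groups overlapped and no change was called. Cdc6 was at 10.49, 10.47 and 10.47 in adult cells and 10.59, 10.40 and 10.27 after differentiation, a change of -0.057 ± 0.082 (interval -0.23 to 0.12; adjusted p = 0.574). Cdc45 was at 9.19, 9.38 and 9.29 and then 9.14, 9.25 and 9.17, a change of -0.098 ± 0.063 (interval -0.23 to 0.035). Cdc45 was called lower after centring, at -0.20 (adjusted p = 0.0112), and after quantile normalisation, at -0.22 (adjusted p = 0.00591). Rrm1 was at 11.32, 11.27 and 11.42 and then 11.34, 11.34 and 11.29, a change of -0.011 ± 0.054 (interval -0.12 to 0.10). These were genes of a loader, a helicase cofactor and the large reductase subunit. The clamp loader gene Rfc4 changed by -0.049 ± 0.092 (interval -0.24 to 0.15).

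Among the mitotic genes Cdc20 changed by -1.38 ± 0.083 (adjusted p = 2.49e-10). Birc5 was at 10.49, 10.40 and 10.70 in adult cells and 9.23, 9.38 and 9.36 after differentiation, a change of -1.21 ± 0.082 (adjusted p = 1.22e-09). Bub1b changed by -0.73 ± 0.047 (adjusted p = 6.32e-10) and Aurka, the kinase of the spindle poles, by -0.72 ± 0.046 (adjusted p = 6.16e-10). The groups of each were apart. Aurkb, at 11.45, 11.51 and 11.48 and then 10.95, 10.99 and 11.00, fell by 0.50 here. Bub1 was at 10.21, 10.32 and 10.41 and then 9.90, 9.93 and 9.81 and fell by 0.43, and Mad2l1 was at 11.51, 11.61 and 11.50 and then 11.18, 11.15 and 11.02 and fell by 0.42. Both checkpoint genes thus moved by similar amounts. Ccnb2 was at 10.64, 10.47 and 10.75 and then 10.11, 10.12 and 10.12 and fell by 0.50. Ccna2 was at 11.10, 11.11 and 11.15 and then 10.75, 10.55 and 10.70 and fell by 0.46. Cdk1, the partner of these cyclins, was at 9.89, 9.76 and 9.96 and then 9.61, 9.85 and 9.75, and its change of -0.14 ± 0.066 was not called (interval -0.28 to 0.0051). Cdk1 was called lower after centring, at -0.23 (adjusted p = 0.0069), after quantile normalisation, at -0.24 (adjusted p = 0.00504), and without replicate 2 of the adult or of the differentiated adult cells (adjusted p = 0.0281 and 0.0266). Kif11 was at 10.08, 9.90 and 10.11 and then 9.99, 9.99 and 9.90, a change of -0.067 ± 0.075 (interval -0.23 to 0.091), and was called lower after quantile normalisation, at -0.17 (adjusted p = 0.0297). Mki67 was at 10.85, 10.81 and 10.87 and then 11.28, 11.13 and 10.99, so every differentiated array lay above the adult ones. It rose by 0.29 ± 0.072 (adjusted p = 0.00221).

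The other replication genes were lower in 28 and higher in 4 of 35 (median -0.65), with Uhrf1 at -1.28. The other mitotic genes were lower in 32 and higher in 5 of 44 (median -0.43), with Cdca5 at -1.50 and the kinetochore gene Spc24 at -1.16. Of the 18 E2F, pocket protein and MuvB genes 9 were lower and 7 higher. E2f8 changed by -1.55 and E2f4 by -1.26, while Rb1, the retinoblastoma pocket protein that restrains E2F, changed by 1.45. Of 8 DNA damage checkpoint genes 4 were lower and 2 higher (median -0.14). Of the 17 fibroblast genes 13 were lower and 4 higher, all 8 pluripotency genes were lower, and 8 of 11 endoderm and extraembryonic genes were higher and none lower. Of the 6 macrophage and blood genes 4 were lower and 2 higher. Their part in the result was not tested.

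**Figure D3:**
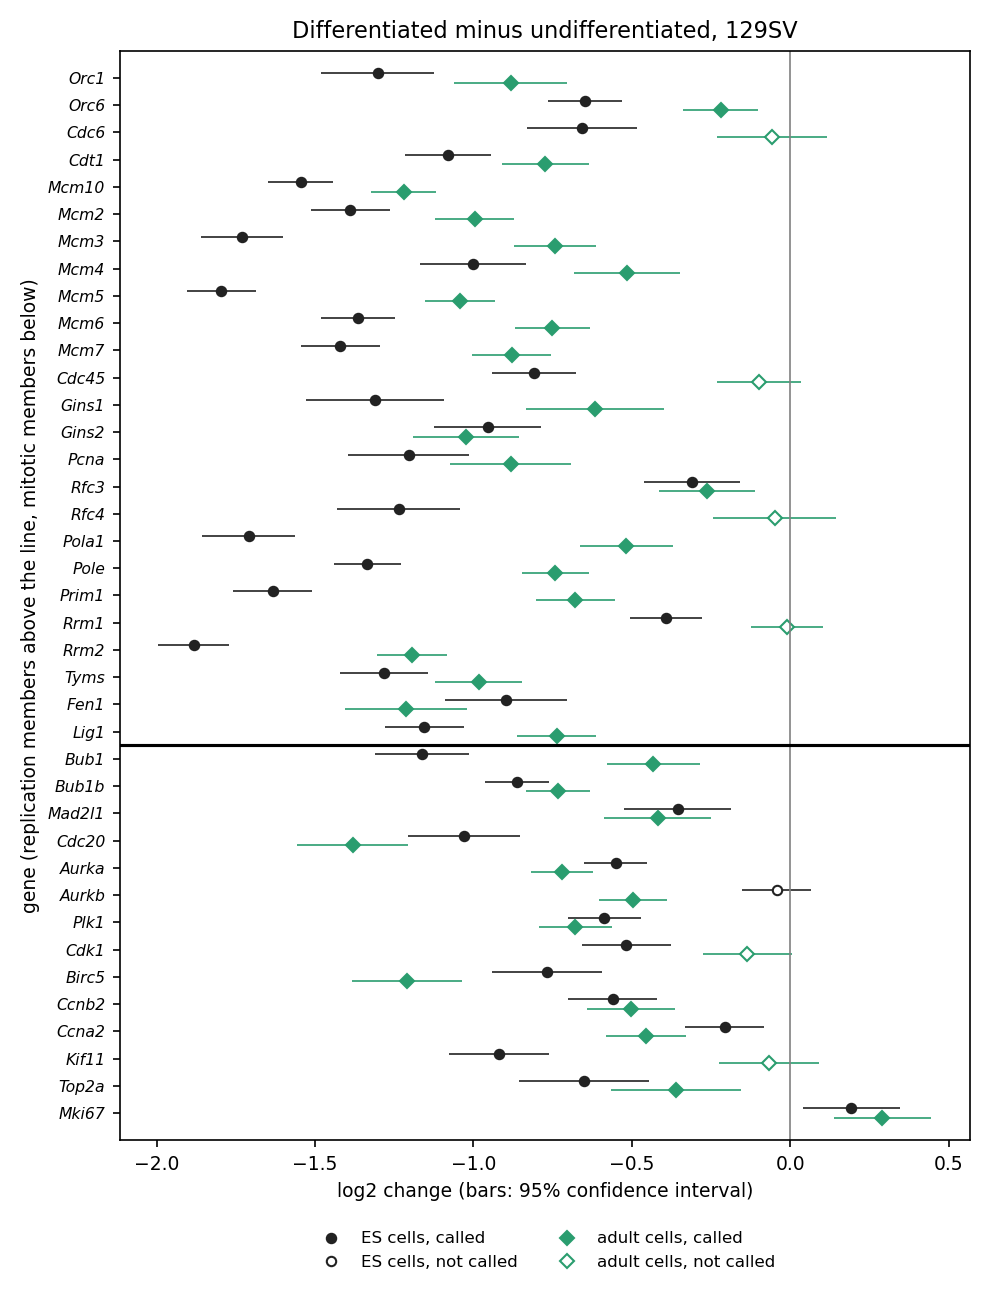
Log2 change on differentiation (points) with its 95% confidence interval (bars) for the 39 genes in ES and in adult cells of the 129SV background; filled points passed the test. All 25 replication genes lie below 0 and are called in ES cells, 21 are called in adult cells, and Mki67 lies above 0 in both.

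Whether the response to differentiation differed between origins was tested as an interaction (the change in adult cells minus the change in ES cells). It was positive and called for 21 of the 25 replication genes and negative for none, with a median of 0.49, beside 24.2% of all genes called positive and 21.5% negative and a median of -0.077. A positive value here means a smaller fall in adult cells. The mitotic genes were called positive in 3 and negative in 5 of 14, with a median of -0.0032. The largest values were 1.19 ± 0.098 for Pola1 (adjusted p = 5.31e-08), 1.19 ± 0.13 for Rfc4 (adjusted p = 1.46e-06) and 0.99 ± 0.086 for Mcm3 (adjusted p = 1.09e-07). The primase gene Prim1 followed at 0.96 ± 0.083 (adjusted p = 9.9e-08). Of these genes, Pola1, Rfc4, Mcm3 and Prim1 were already lower in adult than in ES cells before differentiation, as described below. The genes not called were Fen1 at -0.32 ± 0.13, Gins2 at -0.068 ± 0.11, Rfc3 at 0.048 ± 0.10 and Pcna at 0.32 ± 0.13. Fen1 was called negative, a larger fall in adult cells, after quantile normalisation, at -0.42 (adjusted p = 0.0125), with dim genes left out (adjusted p = 0.0315), and without replicate 1 of the adult or of the differentiated ES cells (adjusted p = 0.0183 and 0.0339). Pcna was called positive after centring, after quantile normalisation, with dim genes left out, and without replicate 3 of the adult or replicate 1 or 2 of the differentiated ES cells, at 0.32 to 0.39.

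Among the mitotic genes the interaction was 0.85 ± 0.11 for Kif11 (adjusted p = 6.1e-06) and 0.73 ± 0.099 for Bub1 (adjusted p = 1.49e-05), which fell less in adult cells. It was also positive for Cdk1, at 0.38 ± 0.094 (adjusted p = 0.00323). It was -0.45 ± 0.072 for Aurkb (adjusted p = 7.88e-05) and -0.44 ± 0.12 for its partner Birc5 (adjusted p = 0.00539), which fell more in adult cells. Cdc20, Ccna2 and Aurka were negative too, at -0.35, -0.25 and -0.17, and their calls were lost in a fit to these 4 groups alone, where 5 mitotic genes were called in place of 8. The call of Cdc20 was also lost without replicate 2 of ES, 1 of adult, 3 of differentiated ES or 3 of differentiated adult cells, and that of Ccna2 without replicate 1 of ES or 2 of differentiated adult cells. That of Aurka was lost without any single array but replicate 1 of ES, 2 of adult or 3 of differentiated ES cells. For Mki67 the interaction was 0.098 ± 0.10 (interval -0.12 to 0.32). Of the 35 other replication genes 15 were positive and 3 negative, and of the 44 other mitotic genes 13 were positive and 9 negative. Of the 18 E2F, pocket protein and MuvB genes 9 were positive and 3 negative, with Rbl1 at 1.17, and of the 8 DNA damage checkpoint genes 6 were positive and none negative. The interaction was positive for 15 of 17 fibroblast genes and negative for 2, and positive for 7 of 8 pluripotency genes, and their part in the result was not tested.

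Every replication gene had a higher signal in differentiated adult than in differentiated ES cells. All 25 were called higher, with a median of 0.59, beside 19.4% of all genes called higher and 12.8% lower and a median of -0.027. Of the 14 mitotic genes 7 were higher and none lower, with a median of 0.16. The replication median minus the mitotic one was 0.43. The largest differences were 1.07 ± 0.052 for Mcm5 (adjusted p = 2.86e-10), 1.00 ± 0.082 for Cdc6 (adjusted p = 1.02e-07), 0.91 ± 0.052 for Rrm2 (adjusted p = 1.98e-09) and 0.79 ± 0.058 for Prim1 (adjusted p = 3.23e-08). The lowest differentiated adult value of each of these genes exceeded the highest differentiated ES value. How many of all genes did so was not counted. Birc5 differed by 0.65 ± 0.082 (adjusted p = 1.16e-05), Top2a, the DNA topoisomerase, by 0.64 ± 0.097 (adjusted p = 7.1e-05) and Mad2l1 by 0.37 ± 0.079 (adjusted p = 0.00184). Aurkb differed by 0.32 ± 0.051 (adjusted p = 0.000136). For Cdc20, Ccna2, Plk1 and Ccnb2 the differences lay between -0.11 and 0.031, and the groups overlapped.

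The mitotic count was less stable than that of replication. In a fit to these 2 groups alone 3 mitotic genes were called, and 4 with the replicate number as a block in that fit, beside 22 and 24 replication genes. With the block in the fit to all arrays the counts stayed at 25 and 7. The other replication genes were higher in 23 and lower in 1 of 35 (median 0.35), with Gins4, a further GINS subunit, at 0.75. The other mitotic genes were higher in 14 and lower in 2 of 44 (median 0.12). Of 18 E2F, pocket protein and MuvB genes 9 were higher and none lower, with the E2F partner Tfdp1 at 0.66, and of 8 DNA damage checkpoint genes 4 were higher. Of 8 pluripotency genes 7 were higher in differentiated adult cells and none lower, and of 17 fibroblast genes 12 were higher and 1 lower. The part of either in the result was not tested.

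Before differentiation, adult and ES cells of the 129SV background differed in both directions. Of the 25 replication genes 10 were higher in adult cells and 4 lower, with a median of 0.058, beside 0.06 over all genes. Of the 14 mitotic genes 7 were higher and 2 lower, with a median of 0.20. Among all genes 23.0% were called higher and 23.1% lower, and without dim genes 4004 of 12411 were higher and 4520 lower. Within a single machine the parts moved apart. Fen1 was higher by 0.77 ± 0.091 (adjusted p = 2.49e-06) and the GINS subunit Gins2 by 0.62 ± 0.079 (adjusted p = 6.21e-06). Rfc4 was lower, at -0.81 ± 0.092 (adjusted p = 1.49e-06), while Rfc3 of the same loader was at 0.19 ± 0.071. The call of Rfc3 was lost with a block for the replicate number (adjusted p = 0.0577), after centring (adjusted p = 0.122), in a fit to these 2 groups alone, and without replicate 1 or 2 of the ES cells or replicate 3 of the adult cells. Pola1, at 10.10, 10.11 and 10.03 in ES and 9.50, 9.47 and 9.36 in adult cells, differed by -0.63 ± 0.069 (adjusted p = 9.6e-07). Mcm3 differed by -0.31 ± 0.061 (adjusted p = 0.000473) against 0.32 ± 0.052 for Mcm5. Prim1 was lower by a small amount, at -0.16 ± 0.058 (adjusted p = 0.0309), and its call was lost on leaving out any single array but replicate 3 of the adult cells. The remaining higher replication genes were Cdc6, Orc6, Mcm10, Cdt1, Mcm2 and Rrm2, at 0.22 to 0.40.

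Birc5 and Aurkb, whose proteins work in 1 complex, showed the largest mitotic differences. Birc5 was at 9.46, 9.40 and 9.44 in ES cells and 10.49, 10.40 and 10.70 in adult cells, a difference of 1.09 ± 0.082 (adjusted p = 1.25e-08). Aurkb was at 10.71, 10.68 and 10.73 and 11.45, 11.51 and 11.48, a difference of 0.77 ± 0.051 (adjusted p = 2.78e-09). Neither gene's groups overlapped. Kif11 was lower in adult cells, at -0.71 ± 0.075 (adjusted p = 6.09e-07), and so was Bub1, at -0.55 ± 0.07 (adjusted p = 5.12e-06). Mad2l1, Top2a, Aurka, Cdc20 and Ccna2 were higher by 0.22 to 0.43, of which the call of Cdc20 was lost without replicate 2 of the ES cells or replicate 1 or 3 of the adult cells. The other replication genes were higher in 17 and lower in 5 of 35, and the other mitotic genes higher in 15 and lower in 10 of 44, with the securin gene Pttg1 at 1.23 and the spindle gene Aspm at -0.74. Of 18 E2F, pocket protein and MuvB genes 4 were higher and 7 lower, with E2f4 at 0.71 and Rb1 at -0.90, and of 8 DNA damage checkpoint genes 2 were higher and 5 lower. Fibroblast genes were lower in 14 and higher in 2 of 17, and pluripotency genes were lower in 2 of 8 and higher in none. Endoderm and extraembryonic genes were lower in 6 of 11 and higher in none (median -0.36), and macrophage and blood genes were lower in 3 and higher in 1 of 6. Their part in the result was not tested.

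In the Stra8 background most mitotic genes were lower in adult than in ES cells, and the replication genes were mixed. Adult cells were lower in 12 of the 14 mitotic genes and higher in none, with a median of -0.39, beside 15.1% of all genes called lower and 13.2% higher and a median of -0.0033. Of the 25 replication genes 7 were lower and 4 higher, with a median of -0.043. Leaving out dim genes, 3312 of 12411 genes were called lower and 2598 higher. The replication median minus the mitotic one was 0.34, against -0.14 in the 129SV background. The count of 11 replication genes depended on single arrays: it was 5 without replicate 1 of the ES cells, and 7 without replicate 2 or 3 of the ES cells or replicate 1 or 3 of the adult cells.

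Aurkb was at 10.84, 10.78 and 10.82 in ES Stra8 and 10.16, 10.14 and 10.19 in adult Stra8, a difference of -0.65 ± 0.051 (adjusted p = 1.06e-07). Birc5, at 9.92, 9.88 and 9.91 and 9.24, 9.17 and 9.15, differed by -0.72 ± 0.082 (adjusted p = 5.42e-06). Both thus lay lower in adult cells here and higher in adult cells of the 129SV background. Ccnb2 was at 10.73, 10.64 and 10.73 and 10.22, 10.15 and 10.12, a difference of -0.54 ± 0.066 (adjusted p = 1.18e-05). Bub1 was at 11.16, 11.21 and 11.21 and 10.70, 10.74 and 10.65, a difference of -0.50 ± 0.07 (adjusted p = 4.22e-05). Every group pair of these genes was apart. Cdk1, at 10.06, 10.07 and 10.02 and 9.74, 9.67 and 9.60, differed by -0.38. Mki67 was at 11.39, 11.41 and 11.43 and 11.11, 11.16 and 11.16, a difference of -0.27. Kif11, at 11.42, 11.42 and 11.50 and 11.18, 11.23 and 11.20, differed by -0.24, a call lost without replicate 3 of the ES cells or replicate 1 or 3 of the adult cells. Mad2l1 was at 11.47, 11.52 and 11.52 and 11.27, 11.32 and 11.24, a difference of -0.23, and that call was lost without any 1 of the 6 arrays. The S-phase and mitotic cyclin Ccna2, at 11.32, 11.38 and 11.34 and 11.22, 11.29 and 11.23, was not called, at -0.10 ± 0.059 (interval -0.23 to 0.023). Top2a was not called either, at -0.24 ± 0.097 (adjusted p = 0.0746), but was called lower in a fit to these 2 groups alone (adjusted p = 0.00525).

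In replication, the ring subunit Mcm6 was higher in adult Stra8 cells by 0.60 ± 0.055 (adjusted p = 5.69e-07). Mcm3, at 12.25, 12.24 and 12.27 in ES and 12.59, 12.61 and 12.62 in adult cells, was higher by 0.35 ± 0.061 (adjusted p = 0.000341). Mcm2 and Rrm2 were higher as well, at 0.18 ± 0.059 (adjusted p = 0.0276) and 0.17 ± 0.052 (adjusted p = 0.0191). The call of Mcm2 was lost without any single array but replicate 3 of the adult cells, and that of Rrm2 without replicate 1 of the ES cells or replicate 1 or 2 of the adult cells. Mcm10, at 10.55, 10.53 and 10.55 and 10.15, 10.14 and 10.10, was lower, at -0.41 ± 0.048 (adjusted p = 6.65e-06). Fen1 was lower at -0.31 ± 0.091 (adjusted p = 0.0155), and its adjusted p was 0.073 and 0.0768 without replicates 1 and 3 of the ES cells and 0.0521 without replicate 3 of the adult cells. Pola1 showed no difference beyond its spread, at 10.56, 10.60 and 10.56 in ES and 10.58, 10.62 and 10.54 in adult cells (interval -0.14 to 0.15). Cdc6, at 10.34, 10.29 and 10.32 and 10.31, 10.38 and 10.33, had an interval of -0.15 to 0.20. Rrm2 was at 10.66, 10.69 and 10.70 and 10.88, 10.86 and 10.83, and its partner Rrm1 at 11.36, 11.35 and 11.39 and 11.50, 11.46 and 11.46. Both reductase genes were slightly higher on all adult arrays, Rrm1 without passing the test, which it passed after quantile normalisation, at 0.14 (adjusted p = 0.0335). Cdc45 was at 9.50, 9.54 and 9.49 and 9.34, 9.33 and 9.25, a difference of -0.21. Rfc3 was at 9.05, 8.99 and 9.05 and 8.85, 8.90 and 8.74, a difference of -0.20. The call of Cdc45 was lost without replicate 1 or 2 of the ES cells or replicate 3 of the adult cells, and that of Rfc3 without any single array but replicate 2 of the adult cells.

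Of the 44 other mitotic genes 34 were lower in adult Stra8 cells and none higher (median -0.35), with the cytokinesis gene Anln at -0.98 and the kinesin Kif2c at -0.78. Of the 35 other replication genes 7 were lower and 5 higher (median -0.069). Of 18 E2F, pocket protein and MuvB genes 4 were lower and 1 higher, with E2f8 at 0.74, and of 8 DNA damage checkpoint genes 2 were lower and 1 higher. All 17 fibroblast genes were higher in adult Stra8 cells, as were 6 of 11 endoderm and extraembryonic genes, with none lower. Of 6 macrophage and blood genes 3 were higher and 1 lower, while 6 of 8 pluripotency genes were lower and none higher. Their part in the mitotic result was not tested.

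**Figure D4:**
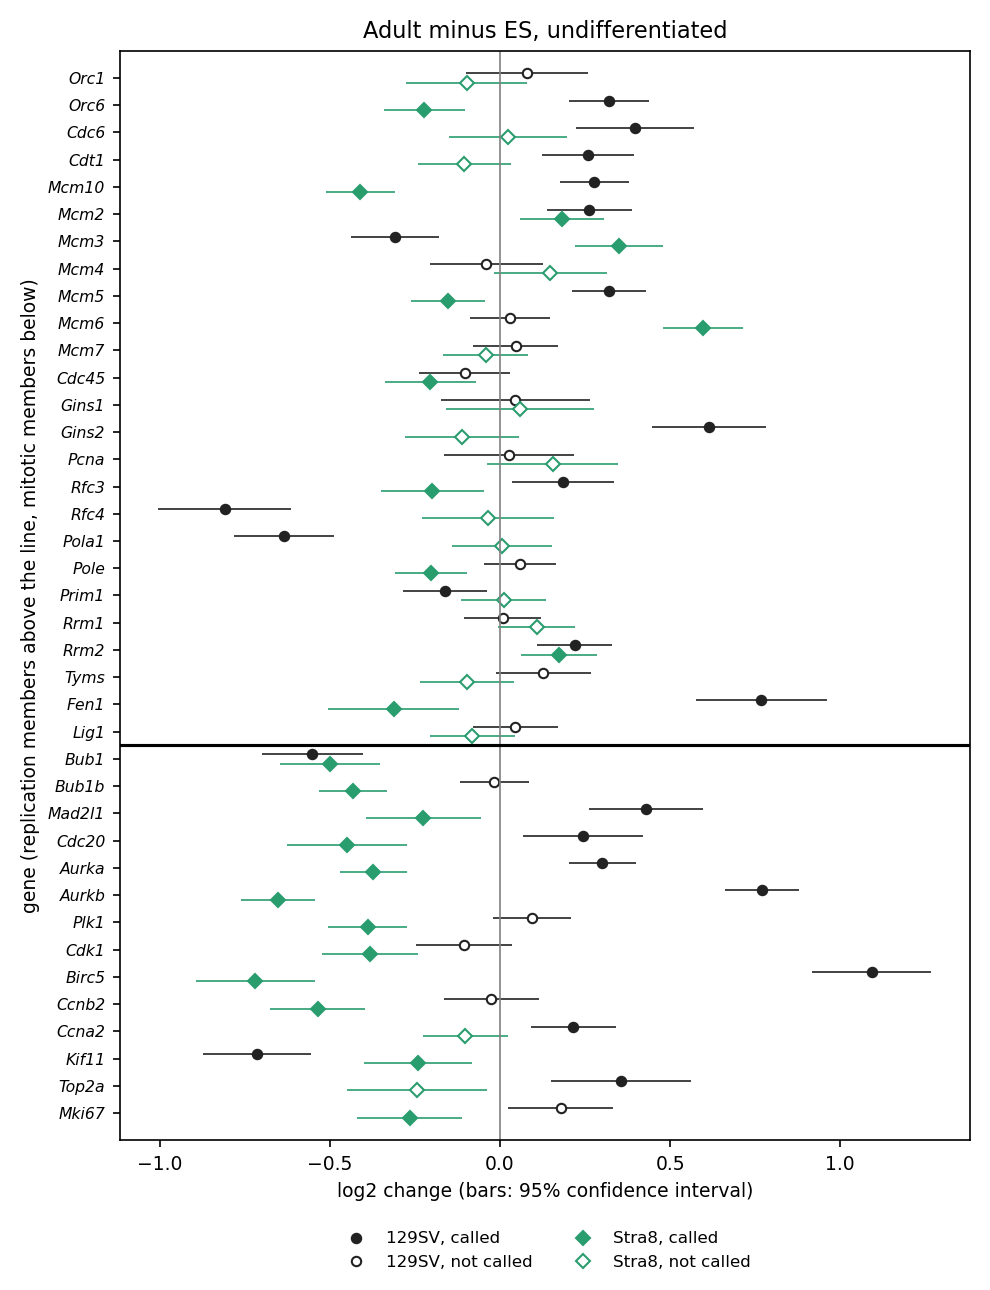
Log2 difference between undifferentiated adult and ES cells (points) with its 95% confidence interval (bars) for the 39 genes in the 129SV and the Stra8 background; filled points passed the test. The mitotic genes lie mostly below 0 in Stra8, and Birc5 and Aurkb lie on opposite sides of 0 in the 2 backgrounds.

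The difference between backgrounds was itself tested (adult minus ES in Stra8, less the same in 129SV). It was called negative for 12 of the 14 mitotic genes and positive for 1, with a median of -0.50, beside 21.8% of all genes called negative and 21.3% positive and a median of -0.06. Of the 25 replication genes 9 were negative and 4 positive, with a median of -0.10. Birc5 had -1.81 ± 0.12 (adjusted p = 1.98e-09) and Aurkb -1.42 ± 0.072 (adjusted p = 1.21e-10). Cdc20 had -0.69 ± 0.12 (adjusted p = 0.000115) and Aurka -0.67 ± 0.066 (adjusted p = 2.94e-07). Kif11 was the positive one, at 0.47 ± 0.11 (adjusted p = 0.00145), and Bub1, lower in adult cells of both backgrounds, had 0.051 ± 0.099 (interval -0.16 to 0.26). In replication, Fen1 had -1.08 ± 0.13 (adjusted p = 2.84e-06), Gins2 -0.73 ± 0.11 (adjusted p = 4.53e-05) and Mcm10 -0.69 ± 0.068 (adjusted p = 3.28e-07). The 4 positive genes were Rfc4 at 0.77 ± 0.13 (adjusted p = 0.000107), Mcm3 at 0.66 ± 0.086 (adjusted p = 8.34e-06), Pola1 at 0.64 ± 0.098 (adjusted p = 4.27e-05) and Mcm6 at 0.57 ± 0.078 (adjusted p = 1.4e-05). Of 35 other replication genes 7 were positive and 15 negative, and of 44 other mitotic genes 2 were positive and 26 negative, with Pttg1 at -1.70. Among 18 E2F, pocket protein and MuvB genes 5 were positive and 4 negative, and of 8 DNA damage checkpoint genes 5 and 2. The fibroblast genes had a positive interaction in 15 and a negative one in 1 of 17, and their part was not tested.

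Between the backgrounds, ES cells had higher mitotic signals in Stra8 than in 129SV. In Stra8, 11 of the 14 mitotic genes were higher and none lower, with a median of 0.40, beside 21.3% of all genes called higher and 20.0% lower and a median of -0.013. Of the 25 replication genes 11 were higher and none lower, with a median of 0.13. Without dim genes, 4179 of 12411 genes were called higher and 3680 lower. Mki67 was higher by 0.75 ± 0.072 (adjusted p = 2.59e-07), Top2a by 0.73 ± 0.097 (adjusted p = 9.15e-06), Kif11 by 0.70 ± 0.075 (adjusted p = 7.45e-07) and Birc5 by 0.47 ± 0.082 (adjusted p = 0.000173). The arrays of ES Stra8 and ES 129SV did not overlap for any of these genes. For Cdk1, Ccnb2 and Aurkb the difference was not called, at 0.075, 0.054 and 0.11, though with array weights that of Aurkb was (adjusted p = 0.018). In replication, Pole was higher by 0.66 ± 0.05 (adjusted p = 1.23e-08), Pola1 by 0.50 ± 0.069 (adjusted p = 1.65e-05), Orc6 by 0.48 ± 0.056 (adjusted p = 2.1e-06) and Orc1 by 0.30 ± 0.084 (adjusted p = 0.00882). These belong to the polymerases and the origin recognition complex. The smaller replication calls, at 0.13 to 0.24, were less firm: 6 of the class were called without replicate 1 of ES 129SV or without replicate 1 or 3 of ES Stra8, and with each array centred 6 were higher and 1 lower. Centring moved the share of higher genes among all calls from 51.6% to 41.5%.

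Of the 44 other mitotic genes 39 were higher in ES Stra8 and 1 lower (median 0.49), with the spindle gene Hmmr at 1.12, the kinetochore motor Cenpe at 1.04 and the mitotic transcription factor Foxm1 at 1.01. Of the 35 other replication genes 13 were higher and 6 lower (median 0.085). Among the E2F, pocket protein and MuvB genes 11 of 18 were higher and 2 lower, with Mybl2 at 0.75, and of 8 DNA damage checkpoint genes 6 were higher and 1 lower. Fibroblast genes were lower in ES Stra8 in 16 of 17 and higher in none, and all 6 macrophage and blood genes were lower. Their part in the result was not tested.

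Adult cells of the 2 backgrounds differed in both directions. Of the 25 replication genes 8 were higher in Stra8 and 7 lower, with a median of 0.02, and of the 14 mitotic genes 3 were higher and 8 lower, with a median of -0.18. Among all genes 24.2% were called higher and 26.8% lower, with a median of -0.077. Fen1 was lower in Stra8, at -1.15 ± 0.091 (adjusted p = 1.85e-08). Pola1 was higher by 1.13 ± 0.069 (adjusted p = 1.02e-09), Rfc4 by 1.01 ± 0.092 (adjusted p = 9.87e-08) and Mcm3 by 0.77 ± 0.061 (adjusted p = 2.04e-08). Gins2, Mcm10, Rfc3, Mcm5, Lig1 and Cdt1 were the other lower genes, at -0.70, -0.49, -0.47, -0.34, -0.22 and -0.17, of which the call of Cdt1 was lost without any single array but replicate 1 of Stra8. Among the mitotic genes Birc5 differed by -1.34 ± 0.082 (adjusted p = 1.07e-09) and Aurkb by -1.32 ± 0.051 (adjusted p = 7.35e-12), each more than 2-fold lower in Stra8. Ccnb2 was lower too, at -0.46 ± 0.066 (adjusted p = 1.84e-05). Kif11 was higher by 1.18 ± 0.075 (adjusted p = 1.63e-09), Bub1 by 0.39 ± 0.07 (adjusted p = 0.000183) and Mki67 by 0.30 ± 0.072 (adjusted p = 0.00216). No pair of groups overlapped for these genes. Of 35 other replication genes 11 were higher and 17 lower, and of 44 other mitotic genes 20 were higher and 16 lower, with the kinetochore gene Nuf2 at 1.24. Of 18 E2F, pocket protein and MuvB genes 9 were higher and 3 lower, and of 8 DNA damage checkpoint genes 5 were higher and 1 lower. Fibroblast genes were higher in 10 and lower in 3 of 17, endoderm and extraembryonic genes higher in 7 of 11, and their part was not tested.

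Across the 18 arrays most members rose and fell together, which is given as a description since the arrays share 6 groups. The median Pearson r between pairs of replication genes was 0.88, between pairs of mitotic genes 0.73, and between a replication and a mitotic gene 0.75 (n = 18 arrays). A few genes stood outside. Aurkb had a median r of 0.013 with the replication and 0.088 with the mitotic genes. For Mki67 these were 0.20 and 0.30, and for Rfc3 0.46 and 0.45. Pcna and Top2a had a second probe set of their own symbol. The Pcna probe sets had almost equal means, 11.468 and 11.465, and on the second one the interaction of differentiation and origin passed the test (adjusted p = 0.0435) that it missed on the first (adjusted p = 0.0504). The second Top2a probe set was dim, with a mean of 6.03, and there the change was -0.13 on differentiation in ES cells and 0.059 in adult cells, neither called.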

How the data were processed

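Total RNA of 18 cultures (6 groups of 3) was isolated with Trizol, treated with DNase I, labelled with biotin from 300 ng and hybridised, per the labels' protocols. Per the submitters' processing notes, the authors ran RMA in Affymetrix Expression Console (version not given) and deposited log2 values; joint normalisation of the 18 arrays is not given in the sources used here. They ran from 1.27 to 14.6 and were used without further scaling. Without detection calls no level could be set against background, and the number of arrays limits the precision.

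Of 35556 probe sets, 21789 had 1 symbol in the platform annotation, 1621 had several and 12146 none. The highest probe set was kept per gene, which left 19938 genes. With limma 3.58.1 (lmFit and eBayes, 12 residual and 3.78 prior degrees of freedom; R 4.3.3), 6 group means were estimated jointly from the 18 arrays, a fit that was checked on simulated data. Calls needed an adjusted p under 0.05, adjusted by Benjamini-Hochberg over the 19938 genes of a comparison. The p-values weigh a difference of group means against the moderated spread among labelled biological replicates. They do not cover a spread between independent lines, whose number is not known here. Comparisons that share a group share its arrays. The members and lists were chosen with earlier results of these data known.

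Every measured member may be named. Full statistics are given for the 4 replication and the 4 mitotic genes with the largest absolute change among those called and for called genes opposite to most of their class. Values per array are given for the member with the largest and the one with the smallest range in each role, and for others where a result turns on them. From each further list at most the 3 largest called changes are named. Replicate numbers were checked as pairs: in differentiated adult against differentiated ES cells all 3 correlations of deviations exceeded 0.1 (0.15, 0.14 and 0.44), in the other 6 comparisons not all did, and no label says what a number stands for. Alternatives were centring, quantile normalisation, a filter on dim genes (12411 genes and all 39 members kept), other probe sets, fits to the compared groups alone, the replicate block, array weights and leaving out each array.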

Additional observations from a re-analysis of the deposited data

Results flagged for a closer look

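The following members were called when the difference between 2 effects was itself tested in limma, as an interaction over all genes. The effect of origin (adult minus ES) differed between backgrounds for 26 members, given here as Stra8 minus 129SV on the log2 scale. Among replication genes it was -0.54 for Orc6, -0.37 for Cdc6, -0.36 for Cdt1, -0.69 for Mcm10, -0.47 for Mcm5, -0.73 for Gins2, -0.38 for Rfc3, -0.26 for Pole and -1.08 for Fen1. It was 0.66 for Mcm3, 0.57 for Mcm6, 0.77 for Rfc4 and 0.64 for Pola1. Among mitotic genes it was -0.42 for Bub1b, -0.65 for Mad2l1, -0.69 for Cdc20, -0.67 for Aurka, -1.42 for Aurkb, -0.48 for Plk1 and -1.81 for Birc5. It was -0.51 for Ccnb2, -0.32 for Ccna2, -0.60 for Top2a, -0.44 for Mki67 and 0.47 for Kif11. For Cdk1 it was -0.28, a call lost without replicate 1 of ES 129SV, 3 of adult 129SV, 2 of ES Stra8 or 3 of adult Stra8.

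The response to differentiation differed between origins for 29 members, given as adult minus ES. Among origin and helicase genes it was 0.42 for Orc1, 0.43 for Orc6, 0.60 for Cdc6, 0.31 for Cdt1, 0.32 for Mcm10, 0.39 for Mcm2, 0.99 for Mcm3, 0.49 for Mcm4 and 0.75 for Mcm5. It was 0.61 for Mcm6, 0.54 for Mcm7, 0.71 for Cdc45 and 0.69 for Gins1. Among the other replication genes it was 1.19 for Rfc4, 1.19 for Pola1, 0.59 for Pole, 0.96 for Prim1, 0.38 for Rrm1, 0.69 for Rrm2, 0.30 for Tyms and 0.42 for Lig1. Among mitotic genes it was 0.73 for Bub1, 0.38 for Cdk1, 0.85 for Kif11, -0.45 for Aurkb and -0.44 for Birc5. It was -0.35 for Cdc20, -0.17 for Aurka and -0.25 for Ccna2, the 3 whose calls single arrays decided.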

How the results depend on the processing

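In all, 26 alternatives were run, but not each applied to every value. Leaving out an array was counted only for comparisons that use it, and only Pcna and Top2a had another probe set. Of 252 called values of members, 211 stayed called under every alternative that applied, and 67 of 99 values that were not called stayed so. The change of Top2a on differentiation of adult cells reversed, to 0.059, on its dim probe set. The replication median change minus the mitotic one moved, with no change of sign, as follows. On differentiation of ES cells it was -0.71, with -0.80 after quantile normalisation, -0.64 with array weights, and -0.74 to -0.66 leaving out 1 array. On differentiation of adult cells it was -0.27, with -0.32 after quantile normalisation and -0.31 to -0.25 leaving out 1 array. Between differentiated adult and ES cells it was 0.43, with 0.46 after quantile normalisation and 0.33 to 0.48 leaving out 1 array. Between adult and ES cells it ran from -0.14 to -0.092 in 129SV and from 0.31 to 0.38 in Stra8 leaving out 1 array. Between backgrounds in adult cells it was 0.20, with 0.25 after quantile normalisation, 0.24 with array weights and 0.18 to 0.23 leaving out 1 array. For the interaction of origin and background it was 0.40, with 0.36 on the lowest probe sets, 0.43 with array weights and 0.35 to 0.43 leaving out 1 array. For that of differentiation and origin it was 0.49, with 0.43 with array weights and 0.40 to 0.54 leaving out 1 array.

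Replication genes called between adult and ES Stra8 ranged from 5 to 8 leaving out 1 array, against 11, and those called between ES backgrounds from 6 to 9, against 11, with 7 after centring. The fits to the compared groups alone called 3 mitotic genes between differentiated adult and ES cells, against 7, and 5 for the interaction of differentiation and origin, against 8. With the replicate block added to those fits the counts were 4 and 5. The replicate block in the fit to all arrays moved no count of members by over 1.5 times: it gave 25 replication and 7 mitotic genes between the differentiated groups. The cause of these moves was not tested.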

Other observations

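The genomic length of a gene (RefSeq, GRCm38.p6) went with the size of some differences, given here as a description across genes, which are not independent replicates. Over the 39 members, Spearman's rho between length and change was -0.48 for adult minus ES in 129SV and 0.53 for Stra8 minus 129SV in adult cells, comparisons that share the adult 129SV arrays. Over 19919 genes the values were -0.22 and 0.29. Over the members rho was 0.50 for the interaction of differentiation and origin and 0.38 for that of origin and background. Over all genes these were 0.25 and 0.20. Over the members it was 0.06 for adult minus ES in Stra8 and 0.28 for Stra8 minus 129SV in ES cells. It was -0.21 for differentiation of ES cells, 0.27 for differentiation of adult cells and 0.091 between differentiated adult and ES cells.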
